A study of Homo sapiens with 10 samples.

Results

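The transcripts of 10 SR protein genes were followed through 10 libraries of polyadenylated RNA from HEK293, a human embryonic kidney cell line. The genes were SRSF1, SRSF2, SRSF3, SRSF4, SRSF5, SRSF6, SRSF7, SRSF10, SRSF11 and SRRM1. They were chosen by name, by matching the transcript accessions of the files to gene symbols, and 10 of 10 were found, with 1 accession each, among 24994 genes or unnamed transcripts in all. The study set RNA levels beside methods that map where proteins bind RNA by ultraviolet crosslinking.

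Cells of a first group received 1 mM 4-thiouridine (4SU), a modified uridine that cells place in newly made RNA and that reacts with bound protein under long-wave ultraviolet light, for 12 to 14 h and were crosslinked at 365 nm. Another group received the same 4SU and no crosslinking, another was crosslinked at 254 nm without 4SU, and the last, called untreated here, received neither. Each of these groups had 2 libraries, lettered A and B. A separate pair, without 4SU or crosslinking per the labels, was transfected with an siRNA against GFP or against HuR, an RNA-binding protein encoded by ELAVL1, with 1 library each. No group had 365 nm light without 4SU, so that light alone was not measured. The labels do not say whether A and B were separate cultures, and the spread behind each p-value may therefore be technical.

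SR proteins carry RNA-recognition motifs and a tail rich in arginine and serine. They bind exonic enhancers in the pre-mRNA, recruit the splicing machinery to nearby splice sites, and in several cases travel with the mRNA to the cytoplasm. Kinases of the SRPK and CLK families phosphorylate the tail and so control where the proteins sit in the nucleus. Many SR genes limit their own protein by splicing in a poison exon, which sends the transcript to nonsense-mediated decay. Such isoforms are not separated here, since each gene was counted through 1 listed transcript. Other transcripts of any member could stand among the 8985 that matched no symbol, which was not tested. The values may therefore not be totals of the gene.

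The start of the genes is shown for 3 members with different calls after crosslinking: SRSF1, called lower at 254 nm, SRSF4, called lower at 365 nm, and SRSF7, which passed the test at neither. The sequences are the 150 bases before the annotated start, 5′ to 3′ on the gene's strand, from RefSeq (GRCh38.p14), at chr17:58007247-58007396, chr1:29181901-29182050 and chr2:38751495-38751644, all on the minus strand. Capitals mark GC boxes, the letters GGGCGG on either strand.
SRSF1: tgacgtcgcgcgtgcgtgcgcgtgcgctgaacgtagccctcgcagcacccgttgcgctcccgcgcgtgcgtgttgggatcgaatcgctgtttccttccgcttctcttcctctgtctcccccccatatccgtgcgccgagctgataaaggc
SRSF4: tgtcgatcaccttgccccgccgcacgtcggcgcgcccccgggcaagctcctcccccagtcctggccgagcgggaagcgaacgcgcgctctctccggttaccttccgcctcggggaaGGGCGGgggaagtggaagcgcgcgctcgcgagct
SRSF7: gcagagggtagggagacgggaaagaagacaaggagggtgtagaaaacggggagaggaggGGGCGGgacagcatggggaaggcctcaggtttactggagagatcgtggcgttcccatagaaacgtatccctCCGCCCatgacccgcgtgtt
The SRSF1 stretch held no GC box, SRSF4 held 1 and SRSF7 held 2. In windows of 250 bases before to 50 after the start, 5 of the 9 members with an entry held GGGCGG (SRSF4, SRSF6, SRSF7, SRSF11 and SRRM1), against 44.6% of 27305 windows. CCAAT was in 2 (SRSF3 and SRRM1), against 35.7% of windows, and TATAAA in 2 (SRSF3 and SRSF11), against 12% of windows. CACGTG and TGACGTCA were in 0 of 9, against 7.43% and 1.98% of windows. Both strands were searched for each motif, none of the 5 motifs contains another, and a match is a description of letters and not of a bound site. The 9 windows were 53.7% to 74.7% G and C with a median of 62.7%, against a median of 58.3% over all windows. A link between these letters and the crosslinking response was not tested.

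The libraries of the 4 groups held 2238569 to 3099769 tags, and the siRNA pair held 8688262 and 9016803. A count of 0 in 1 library allows up to 3 tags, or 0.968 to 1.34 counts per 1000000 tags (CPM) before scaling in the 8 libraries. Crosslinked libraries stood apart from the others. The median length of the transcript a tag came from was 1147 and 1431 nt with 4SU and 365 nm and 1534 and 1305 nt at 254 nm, against 2666 and 3029 nt in untreated cells and 2373 and 2850 nt in cells given only 4SU. The SR transcripts took 0.371% and 0.463% of tags in untreated cells, 0.338% and 0.387% with 4SU, 0.148% and 0.117% at 254 nm and 0.0509% and 0.0778% with 4SU and 365 nm. Because these shares depend on what else was in the library, counts were scaled by TMM factors, which aim at a common level over most genes. That level was not fully reached: the median log2 fold change of all genes was still -0.50 at 365 nm and -0.14 at 254 nm. Apart from the markers, values below are these normalised counts as CPM unless another scaling is named. A fall is thus relative to that scale and includes any shift of the median gene. Marker levels in this paragraph are CPM on library totals. Of the HEK293 markers, 8 of 8 were listed, with a summed level of 145 to 2974 CPM. Among them VIM and PAX2 were at 0 in 1 library each and LHX1 in 4. Leukocyte markers summed to at most 0.327 CPM and squamous markers to at most 0.697, and the hepatocyte markers ALB and APOA1 were listed in no file. Fibroblast markers summed to 12.1 to 32.1 CPM, nearly all from COL1A1, while COL1A2 and DCN reached at most 0.277 and 0.345. In bulk RNA, fewer cells with a transcript and less of it per cell cannot be told apart.

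In untreated cells SRSF2 was the most abundant member per length. SRSF2, which activates exons and also acts in transcription elongation, stood at 198 ± 5.86 CPM per kilobase of deposited transcript length (SD, n = 2). SRSF5 followed at 155 ± 37.6. A broad middle held SRSF7 at 95.9, SRSF6 at 92.1, SRSF3 at 89.1, SRSF1 at 80.4, SRSF4 at 65.0 and SRSF11 at 60.2 CPM per kilobase, and neighbours in that order overlapped between their libraries. SRRM1, at 29.5 ± 6.21, and SRSF10, at 1.31 ± 0.685, lay below them without overlap. The order with 4SU alone again began with SRSF2 (150 ± 12.9 CPM per kilobase) and ended with SRRM1 (33.2 ± 9.72) and SRSF10 (1.24 ± 0.512).

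The order of levels was rearranged in the crosslinked libraries, differently in each crosslinked condition. With 4SU and 365 nm, SRSF2 (97.2 CPM per kilobase), SRSF3 (91.5), SRSF7 (79.8) and SRSF1 (74.4) overlapped at the top, and SRSF5 came next without overlap at 31.5 ± 4.37. At 254 nm the overlapping top group was SRSF7 (119), SRSF2 (113), SRSF5 (108) and SRSF3 (94.9), and SRSF1 lay eighth at 19.7 ± 4.25 CPM per kilobase. SRSF10 ranked last in each of the 4 groups. Its accession held fractional tags in 8 of the 9 libraries where it was listed, which come from splitting tags between matching transcripts, so its level is uncertain and is that of the listed accession, and SRSF6 held such tags in 5 of 10.

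**Figure D1:**
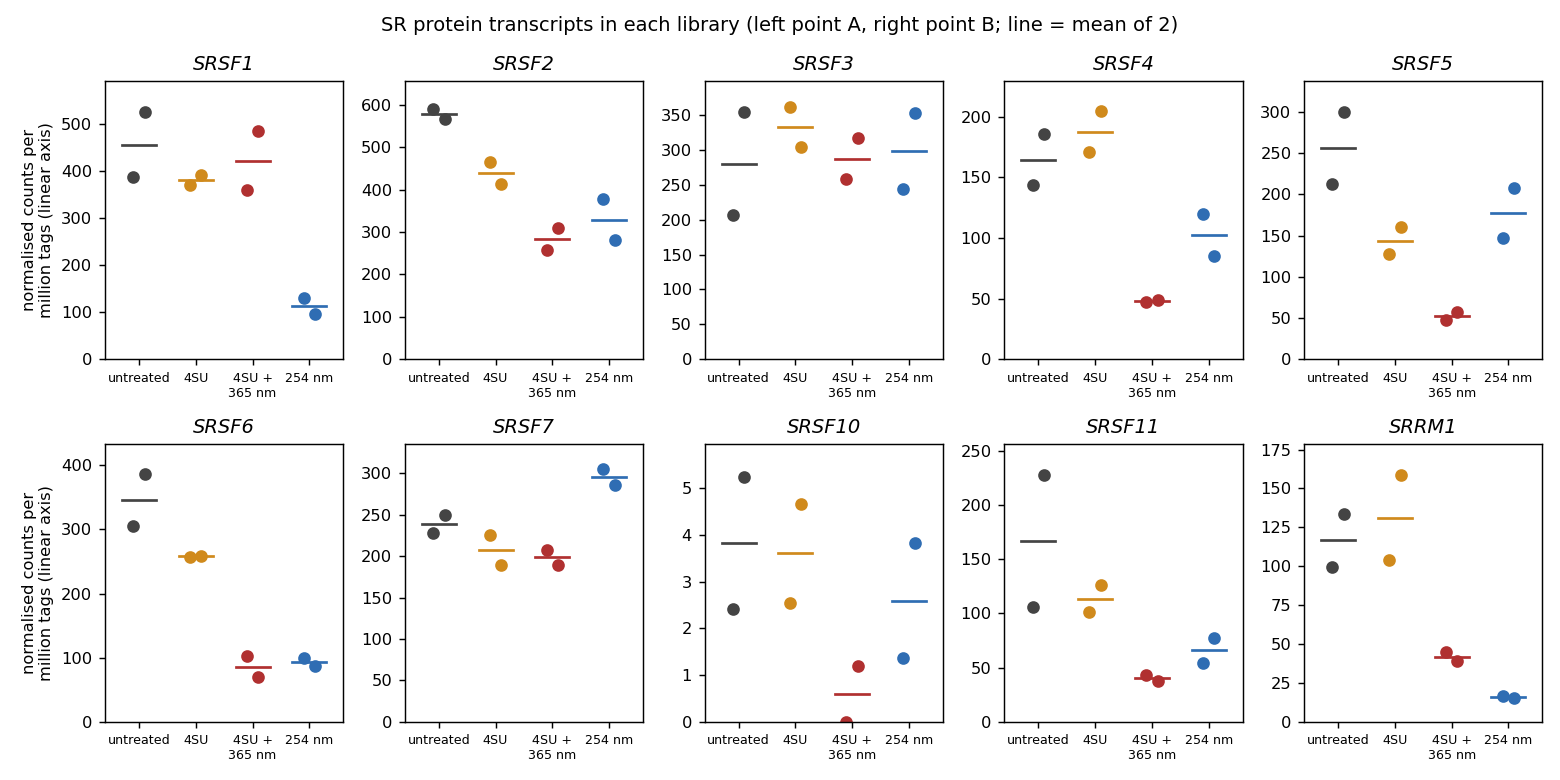
Normalised CPM (y axis, linear, from 0) of the 10 SR protein transcripts in each library of the 4 groups (x axis); points are libraries A (left) and B (right) and the line is their mean. SRSF1 is low in the 254 nm libraries alone (129 and 94.7), SRSF4 is lowest with 4SU and 365 nm (46.9 and 48.7), and SRSF3 overlaps between all groups.

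With 4SU alone and no crosslinking, 0 of 10 SR transcripts passed the test against untreated cells (edgeR quasi-likelihood test, Benjamini-Hochberg adjusted p under 0.05). Over all 13731 genes tested, 3.85% were called higher and 3.69% lower. The members' log2 fold changes ran from -0.83 to 0.25 with a median of -0.23, against 0.02 over all genes. At an unadjusted p under 0.05 there was 1 member, SRSF5, and DESeq2 called 0 as well. SRSF5, a splicing activator with a pair of RNA-recognition motifs, stood at 212 and 300.2 CPM in untreated cells and at 128 and 160 CPM with 4SU. The groups did not overlap, and the log2 fold change was -0.83 (SE 0.335, adjusted p = 0.125). SRSF2, SRSF6 and SRSF7 did not overlap either and were not called. With 2 libraries per group, lack of overlap is a weak sign here and below. Its share over all genes was not counted. Without untreated library A the log2 fold changes were -1.07 for SRSF5 and -1.02 for SRSF11. Without untreated library B they were -0.58 for SRSF5 and 0.083 for SRSF11. Each of these fits rests on 1 untreated library. SRSF5 passed with a trend on transcript length removed, at -0.95 (adjusted p = 0.0409), where 4.6% of all genes were higher and 5.3% lower. The 95% intervals, from the standard error, of SRSF3 (-0.45 to 0.96) and SRSF4 (-0.45 to 0.83) leave room for changes of either sign, so no likeness of the groups is shown.

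Crosslinking at 365 nm in cells with 4SU went with lower levels of 5 of the 10 SR transcripts and higher levels of 0. SRSF4, SRSF5, SRSF6, SRSF11 and SRRM1 fell 2.75-fold to 3.92-fold against 4SU without light. SRSF1, SRSF2, SRSF3, SRSF7 and SRSF10 did not pass. Over all genes 33.7% were called lower and 26.1% higher, so falls were common in this comparison. The members' median log2 fold change was -1.48, against -0.50 over all genes.

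SRSF4, SRSF5 and SRSF6 are close relatives that each carry a pair of RNA-recognition motifs and promote exon inclusion. SRSF4 stood at 171 and 205 CPM with 4SU and at 46.9 and 48.7 CPM after 365 nm light. Both crosslinked libraries lay far below both others, and the log2 fold change was -1.97 (SE 0.355, adjusted p = 1.09e-05). SRSF6 went from 257 and 259 CPM to 102 and 70.3 CPM. Again the groups did not overlap, at -1.59 (SE 0.354, adjusted p = 0.000217). SRSF5 went from 128 and 160 CPM to 46.9 and 57.1 CPM, also without overlap (-1.46, SE 0.359, adjusted p = 0.000684).

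SRSF11, an SR protein of the nuclear speckle, and SRRM1, a splicing coactivator that lacks an RNA-recognition motif and joins the exon junction complex, fell by similar amounts. SRSF11 was at 101 and 126 CPM with 4SU and at 43.6 and 37.6 CPM after 365 nm light (log2 fold change -1.49, SE 0.373, adjusted p = 0.000819). SRRM1 was at 104 and 158 CPM and then at 44.7 and 39.0 CPM (-1.66, SE 0.35, adjusted p = 0.000116). Neither gene's groups overlapped. Each of the 5 calls held in all 16 alternatives run for it, with the highest adjusted p at 0.033, for SRSF11.

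SRSF1, among the founding members of the family and a factor in splicing, export and translation, did not pass. It stood at 369 and 392 CPM with 4SU and at 358 and 485 CPM after 365 nm light, and the groups overlapped. The log2 fold change was 0.15, with a 95% interval of -0.56 to 0.85. SRSF1 was called in opposite directions by different scalings: lower on library totals, at -1.74 (adjusted p = 3.54e-05), where all genes shift down, and higher once a trend on transcript length was removed, at 1.18 (adjusted p = 0.00143).

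SRSF2, SRSF3 and SRSF7 carry a single RNA-recognition motif. SRSF3 and SRSF7 serve as adaptors for mRNA export. SRSF3 was at 362 and 305 CPM with 4SU and at 258 and 317 CPM after 365 nm light, and SRSF7 at 225 and 189 and then 208 and 189 CPM. In both genes the groups overlapped, and the 95% intervals were -0.92 to 0.50 for SRSF3 and -0.73 to 0.61 for SRSF7. The signs of both estimates, -0.21 and -0.06, turned with other scaling factors, to 0.05 and 0.20 with the RLE factors. SRSF2 was at 466 and 413 CPM and then at 258 and 310 CPM. Its libraries did not overlap, yet it did not pass, at -0.63 (SE 0.364, adjusted p = 0.131).

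SRSF10, which acts as a splicing repressor when it loses its phosphates, had too few tags under its listed accession for a firm statement. Tags of other transcripts of the gene could stand under accessions that matched no symbol, which was not tested. After rounding, 2 tags were counted with 4SU and 365 nm, 0 of them in library A, against 34 with 4SU. Scaled by library size and TMM factor, their ratio on the log2 scale was -2.16, with an exact counting interval of -5.26 to -0.20 that covers counting error only. The fitted log2 fold change of -2.08 (SE 1) had an adjusted p of 0.0687. It was -1.38 (adjusted p = 0.307) without 365 nm library A, and without library B the remaining 365 nm library had 0 tags, so no fold is given. With a replicate block it passed, at -2.17 (adjusted p = 0.043).

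Scaling by library totals in place of TMM factors shifted the median of all genes at 365 nm from -0.50 to -2.39. On that scale 10 of 10 members were lower and 0 higher, against 5 lower and 0 higher with TMM. Over all genes 72.4% were then lower and 7.5% higher. Measured from the median of all genes, the members kept nearly the same places under both: SRSF4 stood at -1.47 and -1.50, and SRSF1 at 0.65 on each.

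Light at 254 nm in cells without 4SU went with lower levels of 4 of the 10 SR transcripts and higher levels of 0. SRRM1 fell 7.2-fold, SRSF1 4.08-fold, SRSF6 3.72-fold and SRSF11 2.53-fold against untreated cells. Over all genes 28.0% were called lower and 25.2% higher. The median over the members was -0.75 on the log2 scale and -0.14 over all genes.

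SRRM1 stood at 99.2 and 134 CPM in untreated cells and at 16.7 and 15.5 CPM after 254 nm light. The 2 crosslinked libraries nearly coincided, and the log2 fold change was -2.85 (SE 0.367, adjusted p = 2.07e-07). Only 3.15% of all genes tested had a value as low or lower. SRSF1 went from 386 and 526 CPM to 129 and 94.7 CPM, with no overlap (-2.03, SE 0.375, adjusted p = 2.16e-05). SRSF6 went from 306 and 386 CPM to 98.7 and 87.2 CPM (-1.89, SE 0.35, adjusted p = 2.16e-05), again without overlap.

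SRSF11 was at 106 and 228 CPM in untreated cells, a wide gap between libraries, and at 54.7 and 77.2 CPM after 254 nm light. The log2 fold change was -1.34 (SE 0.352, adjusted p = 0.00145). The call rests on untreated library B and on 254 nm library A: without the first it was -0.70 (adjusted p = 0.097), and without the second -1.06 (adjusted p = 0.055).

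SRSF2, SRSF4 and SRSF5 had lower estimates that did not pass. SRSF2 went from 591 and 567 CPM to 377 and 282 CPM (-0.81, SE 0.363, adjusted p = 0.0552). That miss was narrow, and DESeq2 called the gene, at -0.77 (adjusted p = 0.0248). SRSF4 went from 143 and 186 CPM to 120 and 85.5 CPM (-0.68, adjusted p = 0.0789), and passed once a length trend was removed, at -0.73 (adjusted p = 0.0461). SRSF5 went from 212 and 300.2 CPM to 147 and 208 CPM (-0.53, adjusted p = 0.182). With the length trend removed SRSF5 passed as well, at -1.35 (adjusted p = 0.00134). Its deposited transcript, at 1651 nt, was the shortest among the members.

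SRSF3 and SRSF7 were the members with positive estimates at 254 nm, and neither passed. SRSF7 stood at 228 and 250 CPM in untreated cells and at 305 and 286 CPM after 254 nm light, and its libraries did not overlap. The log2 fold change was 0.31 (95% interval -0.35 to 0.97) and did not pass. SRSF3 overlapped, at 206 and 354 CPM and then 244 and 353 CPM, with 0.09 (95% interval -0.62 to 0.80). SRSF10, with 11 tags after rounding at 254 nm and 32 in untreated cells, did not pass (-0.52, SE 0.662). On library totals the median of all genes at 254 nm moved to -0.99, and 7 members were then lower and 0 higher, against 4 and 0 with TMM, with SRSF7 at -0.54 and SRSF3 at -0.79. Over all genes 47.0% were lower and 10.1% higher on that scale.

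**Figure D2:**
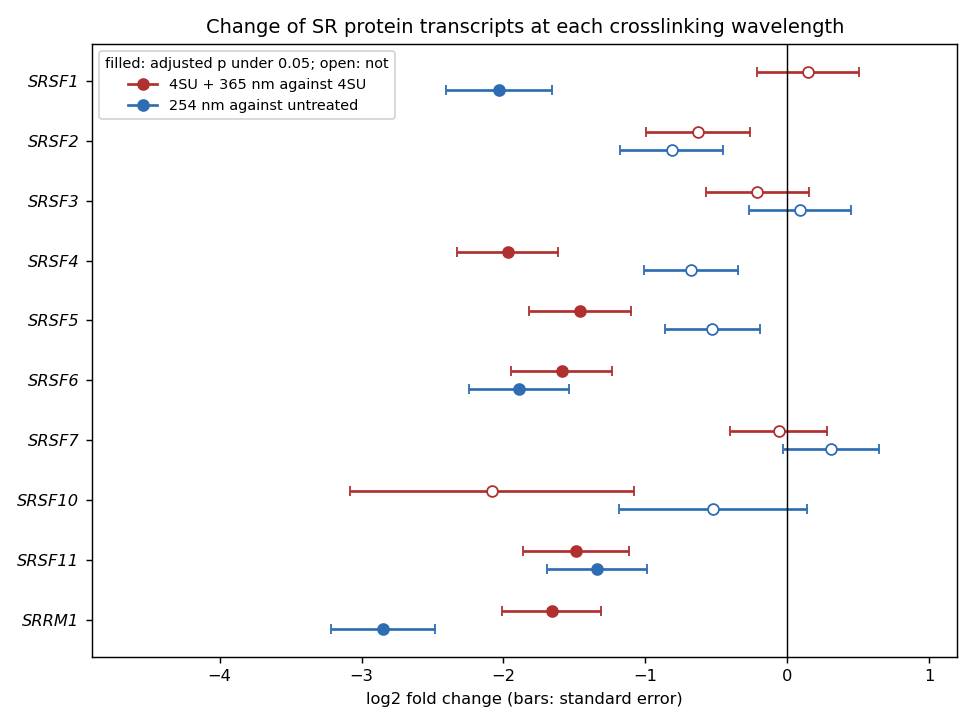
Log2 fold change (x axis; bars are standard errors) of each SR protein transcript (y axis) for 4SU with 365 nm against 4SU (red) and for 254 nm against untreated (blue), from 2 libraries per group; filled points passed an adjusted p of 0.05 and open points did not. SRSF6, SRSF11 and SRRM1 are filled in both, SRSF4 and SRSF5 in red only, and SRSF1 in blue only.

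SRSF6, SRSF11 and SRRM1 were called lower at both wavelengths. The share of all genes called lower at both was not counted, and both effects moved with transcript length over all genes. Whether the effects themselves differed was tested as the 365 nm effect in cells with 4SU minus the 254 nm effect in cells without it. Wavelength and 4SU cannot be told apart in this test. SRSF1 was the member that passed, at 2.18 on the log2 scale (SE 0.515, adjusted p = 0.00246), with a 95% interval of 1.17 to 3.19. The other 9 members did not pass, and over all genes 9.99% were called higher and 7.08% lower. The difference of SRSF1 stayed past the threshold with each library left out in turn, at 1.94 to 2.44, and did not pass on library totals, at 1.12 (adjusted p = 0.102). On library totals the median of all genes moved from -0.15 to -1.18, and 0 members were higher and 3 lower, beside 3.6% and 32.3% of all genes.

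SRSF4 and SRRM1 leaned in opposite directions without passing. SRSF4 had a difference of -1.29 (SE 0.479, adjusted p = 0.0552) and SRRM1 one of 1.19 (SE 0.498, adjusted p = 0.0902). SRSF5, at -0.94 (adjusted p = 0.182), passed at 365 nm and not at 254 nm, but the difference between its effects did not pass. SRSF6 (0.30) and SRSF11 (-0.15) had intervals that held 0, from -0.66 to 1.25 and from -1.14 to 0.84.

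The crosslinked conditions were also set against each other directly, which compares cells that differ both in 4SU and in wavelength and uses the same crosslinked libraries as the comparisons above. Higher with 4SU and 365 nm than at 254 nm were SRSF1, at 1.92 (SE 0.375, adjusted p = 0.000138), and SRRM1, at 1.37 (SE 0.383, adjusted p = 0.00624). Lower were SRSF5, at -1.76 (SE 0.362, adjusted p = 0.000255), and SRSF4, at -1.10 (SE 0.354, adjusted p = 0.0168). All genes showed 15.2% higher and 12.4% lower. SRSF5 held in all 16 alternatives. The calls of SRSF1 and SRRM1 were lost on library totals (0.90, adjusted p = 0.0513, and 0.34, adjusted p = 0.551), where the split was 0 higher and 8 lower against 2 and 2 with TMM, and 4.6% of all genes were higher and 42.8% lower. SRRM1 was also lost without 365 nm library A (1.27, adjusted p = 0.0634), 254 nm library A (1.41, adjusted p = 0.0506) or 254 nm library B (1.31, adjusted p = 0.0566). SRSF4 was lost without 365 nm library A (-1.08, adjusted p = 0.126), 365 nm library B (-1.14, adjusted p = 0.119) or 254 nm library A (-0.84, adjusted p = 0.211).

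Transcript length moved with both crosslinking effects. Across the 13731 genes tested, which are not independent replicates, the Spearman correlation of log2 fold change with deposited length was -0.45 at 365 nm, -0.65 at 254 nm and -0.19 for 4SU alone. The members had a median length of 2923 nt, against 2753 nt for all genes tested, with SRSF1 the longest at 5668 nt and SRRM1 next at 3952 nt. With a length trend removed from each library, SRSF1 at 254 nm went from -2.03 to -0.83 (adjusted p = 0.0273), SRRM1 from -2.85 to -2.11 (adjusted p = 2.1e-05) and SRSF6 from -1.89 to -1.24 (adjusted p = 0.00163). At 365 nm SRSF6 went to -0.86 (adjusted p = 0.0181) and SRRM1 to -0.86 (adjusted p = 0.0219), while SRSF4 stayed at -1.67 (adjusted p = 6.2e-05) and SRSF5 went to -1.95 (adjusted p = 1.7e-05). SRSF1 kept a difference between the effects of 2.01 (adjusted p = 0.00069) under that correction.

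**Figure D3:**
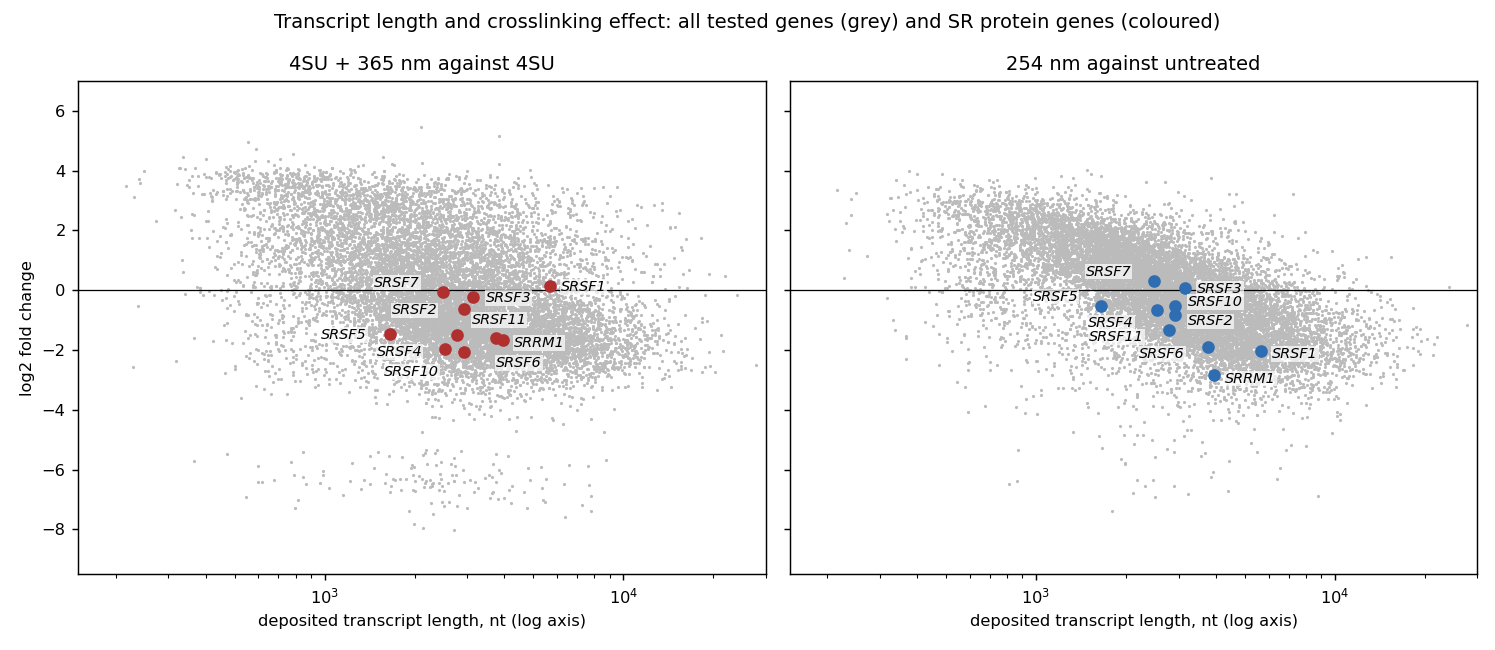
Log2 fold change (y axis) against deposited transcript length in nt (x axis, log scale) for the 13731 genes tested (grey) and the SR protein genes (coloured), at 365 nm in cells with 4SU (left) and at 254 nm (right). The grey cloud slopes down in both panels (Spearman -0.45 and -0.65); SRSF1, at 5668 nt, sits at 0.15 on the left and at -2.03 on the right.

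Uridine content, which together with length sets how many sites 4SU could occupy, was read from the GENCODE transcript for 9 of 10 members (not for SRSF11). SRSF4 had the lowest share at 20.3% and SRRM1 followed at 22.9%, SRSF10 at 25.7% and SRSF5 at 26.9%. The other 5 lay between 29.6% (SRSF2) and 31.9% (SRSF3). Of those with the lower share, SRSF4, SRRM1 and SRSF5 were called lower at 365 nm, and SRSF10, which had too few tags, was not. Of those with the higher share, SRSF6 (31.5%) was called lower at 365 nm and SRSF1 (31.6%), SRSF2, SRSF3 and SRSF7 (30.6%) were not. A link between the share and the calls was not tested. The calls of all genes by uridine content were not counted, so no pattern can be read from these members. The GENCODE and deposited transcripts differ in length for most members, as for SRSF1 (3117 and 5668 nt) and SRSF10 (1631 and 2924 nt). These shares therefore describe the gene and not the exact counted sequence. No check of this property was made over all genes, since 79.9% of them matched a sequence and at least 80% was required.

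Other genes of the pathway were read from lists of related proteins. Of 33 other SR and SR-related proteins tested (of 37 listed), 23 were lower and 4 higher at 365 nm with a median log2 fold change of -1.43, and 19 were lower and 3 higher at 254 nm with a median of -1.10. Over all genes 33.7% were lower and 26.1% higher at 365 nm and 28.0% and 25.2% at 254 nm, with medians of -0.50 and -0.14. At 365 nm CDK13 (-3.03, SE 0.518, adjusted p = 4.58e-06) and CDK12 (-2.63, SE 0.383, adjusted p = 2.31e-07), kinases of transcription elongation with SR-rich regions, were among the 4 named for the largest changes. NKTR, an SR-rich cyclophilin, was at -2.91 and SCAF4, a factor in transcription termination, at -2.21. Mean levels went from 35.4 to 4.32 CPM for CDK13 and from 107 to 14.4 CPM for NKTR. At 254 nm NKTR (-2.54), the splicing and mRNA-processing factor THRAP3 (-2.46), CDK12 (-2.34) and the splicing activator TRA2A (-2.31) changed most. THRAP3 went from 191 to 34.6 CPM and TRA2A from 93.6 to 18.8 CPM.

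Among the kinases, phosphatases and importin that act on SR proteins, 12 of 14 were tested. At 365 nm 8 were lower and 1 higher (median -1.33), and at 254 nm 7 were lower and 2 higher (median -1.15), to be read beside the same shares and medians of all genes. The SR protein kinases CLK2 (-2.50, SE 0.373, adjusted p = 3.85e-07) and CLK1 (-2.20, SE 0.482, adjusted p = 0.000186) fell at 365 nm, CLK2 from 114 to 20.4 CPM. DYRK1A, a related kinase, was at -2.08. PPP1CA, a catalytic subunit of protein phosphatase 1, went the other way, from 164 to 1160 CPM (2.82, SE 0.404, adjusted p = 1.7e-07). Its relative PPP1CB fell at 254 nm, from 113 to 18.0 CPM (-2.64, SE 0.373, adjusted p = 5.04e-07). DYRK1A (-2.20), TNPO3, the importin of SR proteins (-2.05), and the kinase SRPK2 (-1.88) also fell at 254 nm, DYRK1A not with a length trend removed.

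Of 21 exon junction, export and decay factors tested (of 22 listed), 7 were lower and 6 higher at 365 nm with a median of -0.12, and 6 were lower and 7 higher at 254 nm with a median of 0.23. These counts are near the shares of all genes, 33.7% lower and 26.1% higher at 365 nm and 28.0% and 25.2% at 254 nm. The export factors THOC7 (2.50, SE 0.357, adjusted p = 1.61e-07) and ALYREF (2.04, SE 0.342, adjusted p = 3.44e-06) and the exon junction protein MAGOHB (1.91, SE 0.42, adjusted p = 0.000193) rose at 365 nm, and each lost its call on library totals. SMG1, a kinase of nonsense-mediated decay, was at -1.60 at 365 nm and -3.25 at 254 nm. Its tags were split in 7 libraries, which makes its level uncertain, and the 365 nm call was lost with a length trend removed. At 254 nm the export factor THOC2 (-2.50) fell and the export cofactor NXT1 rose (1.84, SE 0.4, adjusted p = 0.000192), the last not with a length trend removed. THOC2 was the only gene of the 3 lists called with 4SU alone, at -1.53 (SE 0.373, adjusted p = 0.00737), from 92.3 to 31.6 CPM, and lost its call without 4SU library A or untreated library B. The deposited transcripts of the named genes that were higher ran from 1028 nt (THOC7) to 2579 nt (MAGOHB), and of those that were lower from 1852 nt (TRA2A) to 16065 nt (SMG1).

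Genes whose levels closely resembled the mean profile of the SR transcripts over the 8 libraries included NAA25 (Pearson r = 0.9928), TUT4 (0.9924), MCM10 (0.9915) and TTK (0.9911). They were taken from 6042 named genes above the median level, of which 618 had r over 0.9. The members did not all share 1 profile: r between pairs of members ran from -0.782 (SRSF1 with SRSF7) to 0.902 (SRSF6 with SRSF11). The libraries share groups and scaling factors, so these values describe these libraries only.

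In the siRNA pair the target was read first. ELAVL1, which encodes HuR, stood at 212 CPM with the GFP siRNA and at 73.1 CPM with the HuR siRNA, a log2 ratio of -1.54 (95% counting interval -1.67 to -1.41). With 1 library per siRNA there is no replicate and no test, and the intervals cover counting error only. Over 17798 genes with enough tags the log2 ratios ran from -0.88 to 0.80 over the middle 80%, with a median of -0.0023, and the SR transcripts had a median of -0.08.

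SRSF11 and SRSF1 had the lowest ratios among the abundant SR transcripts. SRSF11 was at 357 CPM with the GFP siRNA and 247 CPM with the HuR siRNA (-0.53, interval -0.61 to -0.45). SRSF1 was at 861 and 614 CPM (-0.49, interval -0.54 to -0.44), and at -0.19 once a length trend of the ratio was removed. Both ratios lay inside the middle 80% of all genes. The rare SRSF10 was at 8.13 and 4.93 CPM (-0.72, interval -1.30 to -0.16).

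SRRM1 had the highest ratio, at 163 and 194 CPM (0.25, interval 0.15 to 0.35), which was 0.16 on library totals and 0.42 with the length trend removed. The ratios of the other 6 members, SRSF2, SRSF3, SRSF4, SRSF5, SRSF6 and SRSF7, ran from -0.13 (SRSF5) to 0.13 (SRSF4), and on library totals from -0.22 (SRSF5) to 0.040 (SRSF4). SRSF2 was the second most abundant SR transcript per length with the GFP siRNA, at 200.4 CPM per kilobase, after SRSF5 at 223, and the first with the HuR siRNA, at 217 against 204.

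**Figure D4:**
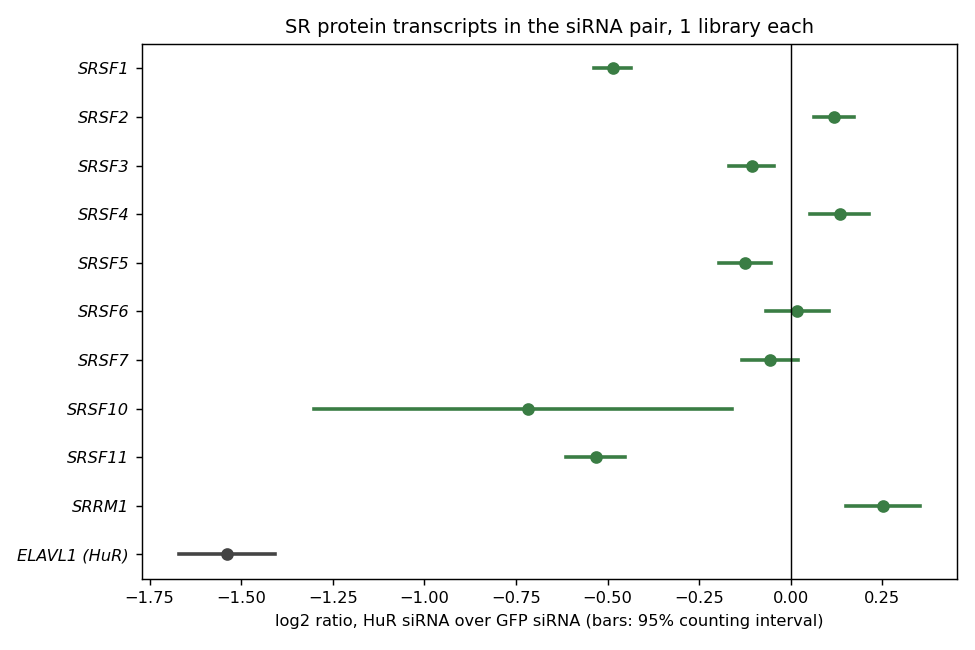
Log2 ratio of the HuR siRNA library over the GFP siRNA library (x axis; points, with bars for 95% counting intervals) for the SR protein transcripts and for ELAVL1, which encodes HuR (y axis). ELAVL1 is at -1.54, SRSF11 at -0.53 and SRSF1 at -0.49, and SRRM1 is the highest at 0.25; with 1 library each the bars hold no replicate error.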

How the data were processed

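The authors deposited, for each of the 10 libraries, expected counts of tags per transcript accession, not normalised, with the transcript length, per the file headers. Where a tag matched several transcripts it was divided among them, which leaves fractions. No aligner, build or annotation release is given in the sources used here, so gene positions are not printed. Accessions were matched to symbols through RefSeq (15886 of 25005 transcripts) and GENCODE (134), and the other 8985 kept their accession as name.

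Expected counts were rounded. The 8 libraries of the 4 groups entered 1 edgeR 4.0.16 quasi-likelihood fit (R 4.3.3) with TMM factors, group means and filterByExpr, which kept 13731 genes, among them 10 of 10 members. Two-sided p-values were adjusted by Benjamini-Hochberg over all of them and called under 0.05, with standard errors from the F statistic. The biological coefficient of variation, edgeR's name for the spread between libraries beyond counting error, was 0.244. Each gene had 4 residual degrees of freedom of its own. A median of 40.2 more were borrowed from the other genes, so most of the weight behind each p-value is shared. The fit was tested on counts simulated for the 365 nm comparison with 4SU, where it recovered 16 of 100 genes changed by 1 on the log2 scale and 93 of 100 changed by 2, and called 6 unchanged genes among the 13134 tested, so smaller changes are often missed. In the measured libraries of that comparison 33.7% of all genes were called lower and 26.1% higher. How often unchanged genes are called when shares that large are called was not tested. Levels per kilobase use the deposited length. The siRNA pair had its own TMM factors, exact counting intervals of 95% and at least 10 tags per gene over the pair. Motifs were searched with Python 3.11.15.

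The members and lists were chosen with earlier results of these data known, and p-values were never adjusted over the members alone. All 10 members are named throughout. From each pathway list, up to 4 called genes with the largest change at each wavelength and all called with 4SU are named, and the likeness genes are from the 5 with the highest Pearson r; some items the rule names are not reported here. Library letters were checked for pairing through the correlation of their A minus B differences between groups, which ran from -0.081 to 0.346, so the letters were not taken to pair samples. The alternatives were RLE factors, library totals, DESeq2 1.42.0, no expression filter, a filter at a mean of 5 CPM, the compared groups only, a replicate block, removal of a loess length trend (span 0.5) and leaving out each library.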

Additional observations from a re-analysis of the deposited data

Results flagged for a closer look

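The effect of crosslinking on SRSF1 differed between 365 nm in cells with 4SU and 254 nm in cells without it. The first effect minus the second was 2.18 on the log2 scale (SE 0.515, adjusted p = 0.00246, edgeR quasi-likelihood test of the difference). Over all genes 9.99% were called higher and 7.08% lower. Wavelength and 4SU cannot be told apart in this comparison. SRSF1 was higher in both 365 nm libraries (358 and 485 CPM) than in both 254 nm libraries (129 and 94.7 CPM), while untreated cells (386 and 526 CPM) and cells with 4SU alone (369 and 392 CPM) overlapped. The value was 2.01 with a length trend removed and 1.12 on library totals, where it did not pass (adjusted p = 0.102).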

How the results depend on the processing

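Depth was 2238569 to 3099769 tags in the 8 libraries, where SRSF10 had 0 to 25 tags under its accession, and 2 libraries per group leave 4 residual degrees of freedom. Over the alternatives, 697 values of single members kept their direction and side of the threshold (or, for the siRNA pair, their value), 33 gained a call, 11 lost one, 47 changed sign and 13 of the siRNA pair moved; of the counts of called members 65 stayed within 1.5 times and 14 did not. The cause of these changes was not tested. SRSF10 was not tested with the 5 CPM filter, nor with the compared groups only at 254 nm or between the crosslinked conditions.

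The number of members called was 0 with 4SU alone and 1 with the length trend removed, where 4.6% of all genes were higher and 5.3% lower. On library totals it went from 5 to 10 at 365 nm, from 4 to 7 at 254 nm, from 4 to 8 between the crosslinked conditions and from 1 to 3 for the difference of the effects, while the share of all genes called lower rose to 72.4%, 47.0%, 42.8% and 32.3%. The difference gave 2 calls with RLE factors, 2 with the 5 CPM filter and 2 with the length trend removed. Over all genes the shares higher and lower were 12.2% and 4.4%, 11.4% and 8.7%, and 13.1% and 6.4%, in that order. With a replicate block, which the data did not bear out as a pairing, the difference gave 2 calls, beside 11.3% higher and 9.8% lower over all genes. With that block 4SU alone gave 0 calls (6.3% and 6.1% of all genes) and 365 nm gave 6 (27.0% and 35.7%). At 254 nm there were 5 (26.8% and 29.8%), and between the crosslinked conditions 4 (16.3% and 14.2%). Over all genes the block moved the 4SU calls from 528 higher and 507 lower to 862 and 831. Leaving out 1 library in turn leaves 1 library in 1 group, so counts of calls from those fits are not listed here.

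Signs turned as follows; on library totals the median of all genes shifts too, by the amounts given with the results. With 4SU alone SRSF10 was at 0.049 on library totals and 0.011 with the compared groups only. At 365 nm SRSF1 was at -1.74 on library totals, SRSF3 at 0.045 with RLE factors, 0.045 with DESeq2 and 0.36 with the length trend removed, and SRSF7 at 0.20, 0.20 and 0.23 in the same order and 0.091 with the compared groups only. At 254 nm library totals gave -0.79 for SRSF3 and -0.54 for SRSF7. Between the crosslinked conditions SRSF3 was at 0.13, 0.13 and 0.15 with RLE factors, DESeq2 and the length trend removed, SRSF6 at 0.072, 0.070 and 0.0091, and SRSF2 at 0.040 with the trend removed. For the difference SRSF11 was at 0.051, 0.054 and 0.15, and library totals gave -0.87 for SRSF2 and -0.80 for SRSF6.

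Leaving out 1 library in turn turned the sign of further values, given as ranges. With 4SU alone these were SRSF3 (-0.10 to 0.67), SRSF10 (-0.56 to 0.63), SRSF11 (-1.02 to 0.083) and SRRM1 (-0.17 to 0.43). At 365 nm they were SRSF1 (-0.090 to 0.36) and SRSF7 (-0.19 to 0.071), and at 254 nm SRSF3 (-0.25 to 0.52) and SRSF10 (-1.44 to 0.11). Between the crosslinked conditions they were SRSF2 (-0.41 to 0.011), SRSF3 (-0.29 to 0.23) and SRSF6 (-0.40 to 0.12), and for the difference SRSF2 (-0.0034 to 0.43), SRSF3 (-0.73 to 0.043) and SRSF11 (-0.80 to 0.30).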
